A study of Rattus norvegicus with 23 samples.

Results

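The acid response of 2 rat kidney cell lines was compared gene by gene: the log2 change from pH 7.4 to pH 6.0 in NRK-52E cells minus the same change in NRK-49F cells, here called the difference. It was estimated for every gene from all 23 labelled libraries in a single model. The genes described are the 9698 that reached a mean of at least 5 FPM (the CPM of the TMM-scaled library) at pH 7.4 in both lines, of 14777 genes tested and 30452 genes in the table. They are called expressed genes below. The limit leaves out genes whose mean at pH 7.4 was below it in 1 or both lines.

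NRK-52E is an epithelial line and NRK-49F a fibroblast line, both derived from normal rat kidney. Cells of both lines were kept in medium without serum for 24 h and then for 48 h at pH 7.4, the control, or at pH 6.0, set with hydrochloric acid, before poly(A) RNA was sequenced. There were 6 libraries of NRK-52E at each pH, 6 of NRK-49F at pH 7.4 and 5 of NRK-49F at pH 6.0. The labels do not say whether libraries came from separate cultures, so p-values measure the spread between these libraries. The labels name no genetic change in either line. The growth medium held 1.5 g/L NaHCO3 by the labels and 2 g/L by the study's methods. The labels also place the libraries in sample groups 1 and 3 (NRK-52E) and 4 and 6 (NRK-49F), whose meaning they do not give. Each sample group held 3 libraries per pH, except that group 4 held 2 at pH 6.0.

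Extracellular acid lowers the cytosolic pH, and tubule cells and interstitial fibroblasts of the kidney meet it in metabolic acidosis. Cells answer through exchangers that move acid and base, through stress pathways that slow growth and adjust protein folding, and through changes in matrix production, lipid supply and cell adhesion. Which of these routes a cell uses depends on its type.

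Library totals ran from 16412564 to 34250535 counts, with a median of 19830621. The labelled cell types were only partly visible in markers, given here as CPM without TMM scaling. Cdh1 and Epcam, which mark epithelia, had medians of at most 0.2 in both lines, and Krt8 was at 522.6 in NRK-52E and 751.5 in NRK-49F at pH 7.4. Krt7, also on the epithelial list, had medians of 21.27 in NRK-52E and 1.445 in NRK-49F at pH 7.4. Of the fibroblast genes, Col1a1 (median 5703), Pdgfra (290.3) and Prrx1 (185.1) were high in NRK-49F at pH 7.4. Thy1 (0) and Dcn (3.88) were not. The summed fibroblast list was 6354 in NRK-52E at pH 7.4, nearly all of it Col3a1. The summed leukocyte list went in NRK-49F from 20.3 to 32.9 at pH 7.4 to 202 to 224.3 at pH 6.0, and this was Cd68, a lysosomal protein, while Ptprc and Itgam were at 0 at pH 6.0. Endothelial and podocyte lists stayed at or below 22.9 in every library. Whether other cell types took part in the differences was not tested.

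In all, 4 libraries at pH 7.4 were set apart for signal of genes typical of the other line. Over 23 genes that were above 200 FPM in NRK-49F and below 0.3% of that level in the median NRK-52E library, the NRK-52E libraries A021, A022 and A033 held 1.37%, 0.449% and 0.321% of the NRK-49F level, against 0 to 0.0456% in the other NRK-52E libraries. Over 3 such NRK-52E genes, the NRK-49F library A051 held 2.47%, against 0.421% in A039 and 0.0123 to 0.28% in the other NRK-49F libraries. A039 was not among the 4, though its share was above that of A033, so no single limit was used. The NRK-49F shares rest on only 3 genes. Col1a2, a collagen gene that was abundant in NRK-49F and scarce in NRK-52E and is named because of these libraries, moved with them. Its difference was -4.74 with all libraries and -0.02 without these 4 (adjusted p = 0.992, quasi-likelihood F test in edgeR, Benjamini-Hochberg). Without these 4 libraries, 66 of the 9698 expressed genes fell below the limit of 5 FPM, so they passed it only through them. Of the 4440 called differences, 974 were not called without the 4 libraries and 0 changed sign. That fit also had fewer libraries, and whether the signal of the other line made these calls was not tested. Of 44 expressed genes over 20-fold apart between the lines at pH 7.4, 25 had a called difference. Of these, 22 were still called without the 4 libraries. The difference of a gene or list is given with and without them where the values differ by over 1.5 times.

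The acid response of many genes differed between the lines. The difference was called, at an adjusted p under 0.05, for 4440 of 9698 expressed genes (45.8%), against 41.4% of all tested genes. It was positive for 1995 (20.6%, against 16.8% of all tested) and negative for 2445 (25.2%, against 24.7%). The split depended on the scaling: with TMM applied within each line there were 2462 positive and 1973 negative calls, so that the share of positive calls was 55.5% in place of 44.9%. Of the called differences, 1180 exceeded 1 in absolute log2 units (12.2% of expressed genes, against 18.1% of all tested) and 161 exceeded 2 (1.66%, against 6.4%). Large differences were thus less frequent among expressed genes. In 3625 the absolute change was larger in NRK-52E cells (37.4%, against 33.6%). The median difference was -0.04, with quartiles at -0.44 and 0.32 and a range from -5.40 to 5.24.

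NRK-52E cells also changed more genes. In this line, 6209 expressed genes were called (64.0%, against 61.2% of all tested), 2801 higher (28.9%, against 24.7%) and 3408 lower (35.1%, against 36.6%). In NRK-49F cells 2957 were called (30.5%, against 28.9%), 1471 higher (15.2%, against 14.5%) and 1486 lower (15.3%, against 14.4%). Of the 2198 genes called in both lines, 1781 moved the same way. Among these, the fitted change was significantly larger in NRK-52E for 601 and in NRK-49F for 117.

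Most other calls fell into 3 patterns. In the most frequent, 2741 genes changed in NRK-52E alone, meaning that they were called there and in the difference but not in NRK-49F (28.3%, against 25.7% of all tested), 1231 higher and 1510 lower. For 2136 of them the 95% interval of the NRK-49F change lay inside -0.5 to 0.5 (22% of expressed genes, against 15.2% of all tested). Another 447 genes changed in NRK-49F alone (4.61%, against 4.35%), 234 higher and 213 lower. Of the 447, 376 had an NRK-52E interval inside the same band (3.88%, against 2.65%). Finally, 417 genes moved in opposite directions, called in both lines with opposite signs (4.30%, against 4.18%). The shares of the 3 patterns were near those of all tested genes. Of the 417, 155 rose in NRK-52E and fell in NRK-49F and 262 did the reverse, a split that became 206 and 206 with TMM within each line and 132 and 134 among genes at 20 FPM or more. In 162 of the 417 the values at the 2 pH levels did not overlap in either line (1.67% of expressed genes, against 1.46% of all tested).

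**Figure D1:**
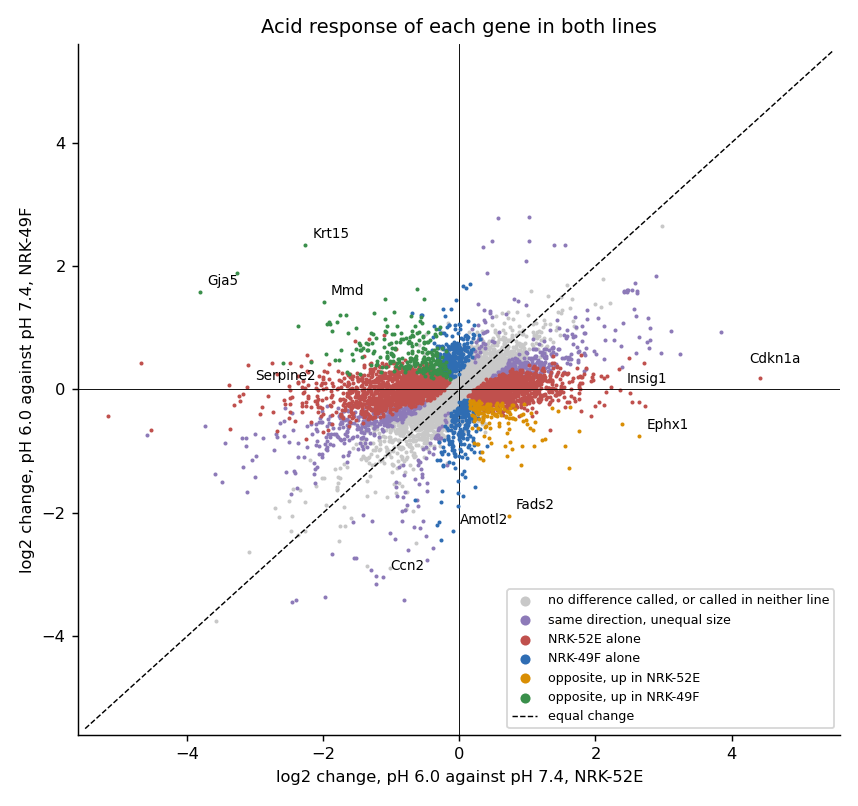
Each point is an expressed gene, plotted by its log2 change from pH 7.4 to pH 6.0 in NRK-52E cells (x) and in NRK-49F cells (y), coloured by pattern, with the dashed line marking equal change. The cloud is wider along the NRK-52E axis, and the 417 opposite genes lie in the upper left (262) and lower right (155).

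Directions were mostly shared between sample groups, while sizes differed. Among the 9698 expressed genes, 2340 differences were called in sample groups 1 and 4 alone. In the disjoint groups 3 and 6, 2263 of them (96.7%) had the same direction and 1958 (83.7%) the same call. Those 1958 were only 45.9% of the 4263 differences called in groups 3 and 6. The pattern of NRK-52E alone was called again for 82% of its genes from groups 1 and 4 and for 39.1% from groups 3 and 6. For NRK-49F alone these shares were 28.2% and 37.8%. Of 198 genes opposite in groups 1 and 4, 180 (90.9%) kept both directions in groups 3 and 6 and 111 (56.1%) were called opposite again. Those 111 were 36.6% of the 303 opposite genes of groups 3 and 6, and 79 of the 111 rose in NRK-49F. The NRK-52E change itself differed between sample groups 1 and 3 for 1281 expressed genes, whereas 0 did so between the NRK-49F groups 4 and 6 by the quasi-likelihood F test in edgeR. At an unadjusted p under 0.05 the numbers were 2751 and 304. A call over all libraries need not hold in each sample group: for Cyp51, Fasn, Syvn1, F3, Ier3, Lamb1, Mcm3, Prim1, Pole, Lig1 and Rrm1, described below as opposite, the change in 1 of the lines missed the threshold in at least 1 sample group. What separated the sample groups is not stated in the labels and was not tested.

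The largest positive difference was that of Tnfsf18, which encodes the GITR ligand of the TNF family and was singled out after its values were seen. At pH 7.4 it stood at 5.04 to 7.92 FPM (median 7.37) in NRK-52E and at 6.15 to 8.71 (6.84) in NRK-49F. At pH 6.0 it reached 7.89 to 32.3 FPM (median 18.3) in NRK-52E but only 0.968, 0.549, 0.223, 0.433 and 0.444 in the 5 NRK-49F libraries. The lines were thus alike at pH 7.4 and far apart at pH 6.0, with a slight overlap of the pH values in NRK-52E. The NRK-52E change was 2.01 in sample group 1 and 0.39, not called, in group 3, while the NRK-49F falls were -3.25 in group 4 and -4.19 in group 6. The difference was 5.24 ± 0.52 (SE), with an adjusted p of 3.78e-08 (quasi-likelihood F test in edgeR, Benjamini-Hochberg).

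Among the opposite genes without overlap that rose in NRK-52E, Ephx1 led. It encodes the microsomal epoxide hydrolase, a detoxifying enzyme (ENSRNOG00000003515, chromosome 13). Ephx1 stood at 30.7 to 44.2 FPM (median 34.6) in NRK-52E at pH 7.4 and at 129 to 323 (223) at pH 6.0. In NRK-49F it went from 20.6 to 29.1 (25) down to 17.6, 13, 15.1, 14.8 and 12.9. Every acid library of NRK-52E lay above its controls and every acid library of NRK-49F below. Its log2 change was 2.65 ± 0.22 (SE) in NRK-52E and -0.76 ± 0.23 in NRK-49F. The NRK-52E rise was 1.79 in sample group 1 and 3.23 in group 3.

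Plk2, a polo-like kinase and p53 target, rose in NRK-52E from 12.7 to 24.3 FPM (median 18.1) to 30.2 to 91.6 (54.1). In NRK-49F it fell from 32.8 to 40.6 (37.4) to 17.5, 13.5, 15.8, 14.2 and 15.8, so that the order of the lines was exchanged. Kdsr, which makes a sphingolipid precursor, had the smallest error of the group, with changes of 1.21 ± 0.08 and -0.82 ± 0.08. Dusp8, a phosphatase of stress-activated kinases, changed by 1.10 ± 0.20 and -0.92 ± 0.21, and Nt5dc2 by 0.92 ± 0.15 and -0.92 ± 0.15. The differences of these 5 genes ran from 1.84 (Nt5dc2) to 3.41 (Ephx1), with adjusted p from 5.91e-12 to 5.51e-06 by the quasi-likelihood F test in edgeR.

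In the reverse direction, Gja5 had the most negative difference of all expressed genes. It encodes the gap junction protein connexin 40 (ENSRNOG00000017484, chromosome 2). Both lines held similar levels at pH 7.4, 5.09 to 9.97 FPM (median 6.4) in NRK-52E and 4.99 to 7.21 (5.85) in NRK-49F. At pH 6.0 Gja5 was at 0.157 to 0.797 (0.537) in NRK-52E and at 21.7, 15.8, 17.6, 17.6 and 15.6 in NRK-49F. The libraries of the 2 lines at pH 6.0 were separated by a wide gap. The changes were -3.82 ± 0.23 and 1.58 ± 0.19, a difference of -5.40 ± 0.30 (adjusted p = 5.23e-12, quasi-likelihood F test in edgeR, Benjamini-Hochberg).

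Krt15, a keratin of stratified and glandular epithelia, behaved alike. In NRK-52E it went from 4.69 to 6.34 FPM (median 5.89) to 0.444 to 2.18 (0.846), and in NRK-49F from 6.36 to 8.36 (7.46) to 40.2, 27.8, 42.5, 46.9 and 33.9. The fibroblast line thus held the higher keratin 15 RNA at pH 6.0. Mmd went from 63.7 to 78.0 FPM (median 68.6) to 13.9 to 20.8 (17.5) in NRK-52E and from 21.2 to 26.7 (24.0) to 53.5, 53.2, 67.9, 78.0 and 68.2 in NRK-49F. The Mmd level of NRK-49F cells at pH 6.0 overlapped that of NRK-52E cells at pH 7.4. Fzd8, a Wnt receptor, changed by -1.91 ± 0.16 and 1.09 ± 0.16, and the metalloproteinase gene Mmp19 by -1.94 ± 0.18 and 1.06 ± 0.16. Asrgl1, an asparaginase, changed by -2.38 ± 0.19 and 1.02 ± 0.16. The differences of these 5 genes ran from -3.00 (Fzd8) to -4.61 (Krt15), with adjusted p from 5.66e-13 to 1.60e-09 by the quasi-likelihood F test in edgeR.

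**Figure D2:**
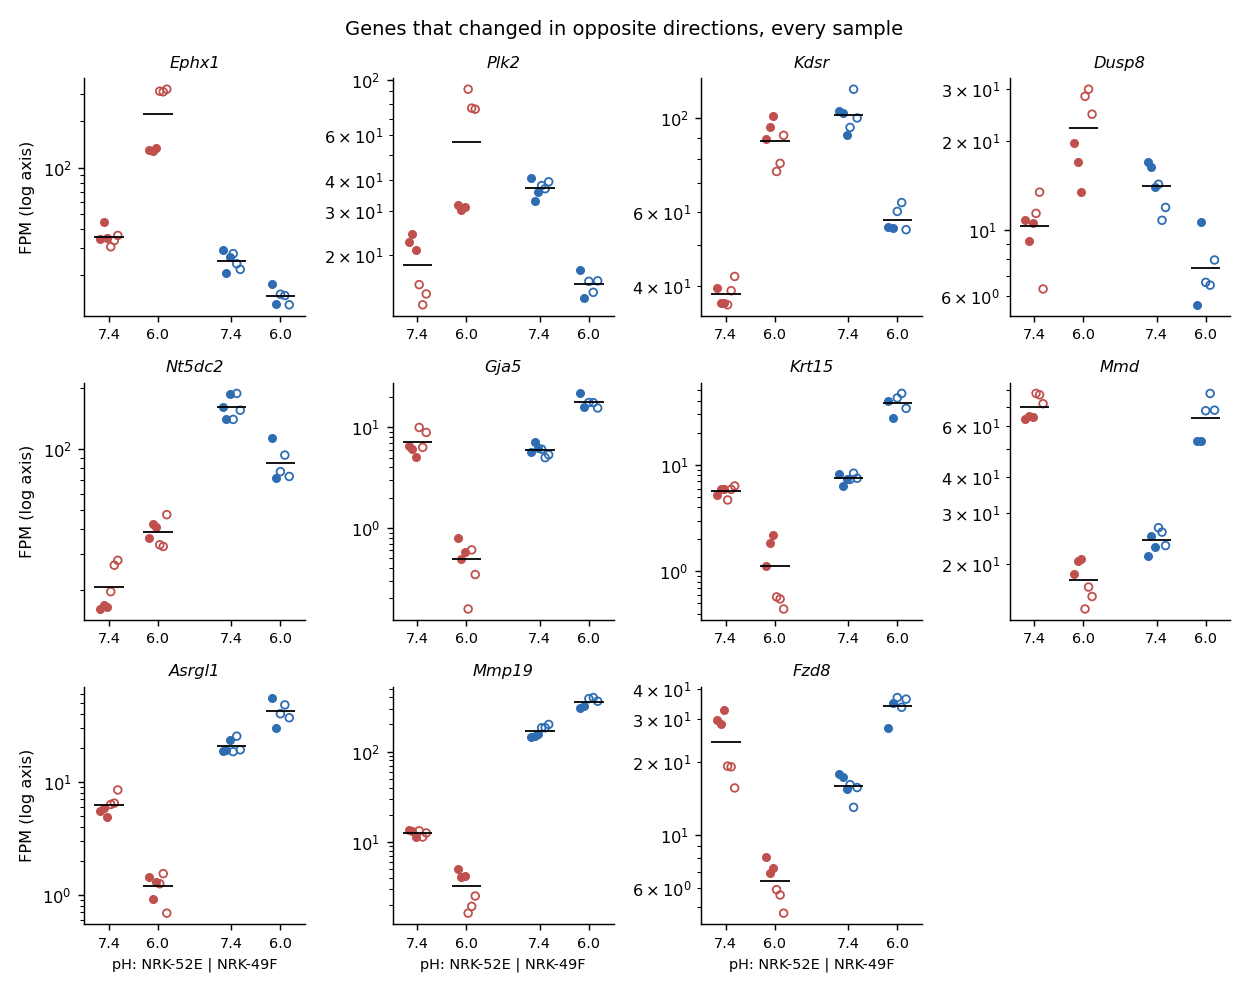
FPM of 11 opposite genes in every library on a logarithmic axis, by pH, with NRK-52E in red and NRK-49F in blue. Filled points are sample groups 1 and 4, open points groups 3 and 6, and bars are group means; in no panel do the pH values of a line overlap.

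Genes that moved in NRK-52E alone were chosen so that the other line's interval lay within 0.5 log2 units of no change. Aen, a nuclease induced by p53, rose in NRK-52E from 9.47 to 17.0 FPM (median 11.2) to 53.6 to 83.0 (65.4), a change of 2.5 ± 0.14, against -0.06 ± 0.14 in NRK-49F. Insig1, the sterol-dependent brake on SREBP processing, rose from 110 to 139 (125) to 579 to 710 (634), while the NRK-49F libraries at pH 6.0 held 222, 170, 154, 150 and 149 against 152 to 188 at pH 7.4. Gpr180, Fam114a1 and Cdr2 rose by 2.13 to 2.22. The NRK-49F change of Cdr2 was 0.54, called, in sample group 4 and -0.11, not called, in group 6. Of the genes that fell, Dsp, the desmosomal plaque protein desmoplakin, changed by -3.39 ± 0.23 from a level of only 3.85 to 6.04 FPM. The lysyl oxidase family gene Loxl1 changed by -3.24 ± 0.22, Serpine2 (protease nexin 1) by -3.11 ± 0.17, the kinase gene Prkch by -2.5 ± 0.19 and the nucleosome-binding protein gene Hmgn2 by -2.49 ± 0.11. Dsp, Loxl1 and Serpine2 were far higher in NRK-49F at pH 7.4, at medians of 57.7, 588.5 and 3176 FPM. Their differences without the 4 libraries stayed within 1.5 times of the values with them.

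Genes that moved in NRK-49F alone included Plin2, the coat protein of lipid droplets. It rose from 96.9 to 162.5 FPM (median 114.5) at pH 7.4 to 473, 316, 413, 428 and 349, and in NRK-52E stood at 62.8 to 81.3 (71.9) and 68.6 to 90.5 (81.5). The chromatin protein gene Hmga1 changed by 1.68 ± 0.15 in NRK-49F against 0.05 ± 0.15 in NRK-52E. Fam102a (1.64), the nucleoside transporter gene Slc29a1 (1.44) and the intermediate filament gene Synm (1.11) rose as well. The NRK-52E change of Slc29a1 was -0.68 in sample group 1 and 0.58 in group 3, so its near-zero value over both groups is an average of opposite values. Of the genes that fell in NRK-49F, Amotl2, Fhl2 and Ccn4 are described with the CCN and YAP/TAZ genes. The fall of Steap2, a metalloreductase, was -1.68 ± 0.14 and that of Sh3tc1 -1.74 ± 0.19.

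Cholesterol synthesis had the largest positive median difference of the 53 functional lists examined. Of its 24 expressed genes, 18 had a positive and 1 a negative called difference (79.2% called), and the median difference was 1.50, against -0.04 over all expressed genes. In NRK-52E, where 28.9% of all expressed genes rose and 35.1% fell, 20 of the list rose and 1 fell. The median change of the list was 1.62 in NRK-52E and 0.01 in NRK-49F. Of the 24, 16 changed in NRK-52E alone, against 28.3% of all expressed genes. Idi1, which isomerizes the isoprenoid building block, stood at 4.25 to 14 FPM (median 6.61) in NRK-52E at pH 7.4 and at 33.6 to 72.1 (54) at pH 6.0. In NRK-49F it was at 3.11 to 7.73 (5.68) and then at 6.52, 4.51, 4.15, 3.5 and 4.50 FPM. The acid NRK-52E libraries of Idi1 lay above all others, with changes of 2.73 ± 0.29 and -0.27 ± 0.31.

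The synthase gene Hmgcs1 changed by 2.06 ± 0.22 in NRK-52E against -0.20 ± 0.22 in NRK-49F. The demethylase gene Cyp51 was opposite, at 2.39 ± 0.21 and -0.57 ± 0.21. The negative call was Scap, the escort protein of SREBP, at -0.55 ± 0.08 against 0.04 ± 0.08.

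Genes of fatty acid synthesis and desaturation followed on a smaller scale, with 7 positive and 1 negative call among 10 expressed genes and a median difference of 0.58. Fasn, the fatty acid synthase, was opposite at 1.45 ± 0.12 and -0.36 ± 0.13. Fads2, the delta-6 desaturase, stood at 41.9 to 88.5 FPM (median 66.4) and 73.0 to 145 (111) in NRK-52E. In NRK-49F it fell from 91.5 to 123 (94.6) to 20, 28.1, 23.8, 25.9 and 23.6. The difference of Fads2, 2.78 ± 0.28, thus came mostly from the fall in NRK-49F. Elovl5, an elongase of polyunsaturated fatty acids, was the negative call, at -0.08 ± 0.06 against 0.63 ± 0.07.

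Targets of p53, which arrest the cycle or promote cell death after damage and stress, had the next largest median difference, 1.32. Of 17 expressed genes, 13 had a positive and 2 a negative called difference (88.2% called). Of the 17, 12 changed in NRK-52E alone, against 28.3% of all expressed genes. Cdkn1a, the inhibitor of cyclin-dependent kinases p21, stood at 13.2 to 21.8 FPM (median 17.4) in NRK-52E at pH 7.4 and at 190 to 550 (370) at pH 6.0. In NRK-49F it was at 271 to 327 (309) at pH 7.4 and at 415, 327, 331, 350 and 313 at pH 6.0. NRK-52E cells at pH 6.0 therefore spanned the level that NRK-49F cells held at both pH values. The changes of Cdkn1a were 4.41 ± 0.27 and 0.19 ± 0.24.

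Ccng1 went from 67.0 to 101 FPM (median 80.1) to 275 to 765 (515) in NRK-52E, while NRK-49F held 394 to 438 (412) and then 346, 329, 383, 362 and 368. Phlda3 went from 25.1 to 44.0 (32.3) to 101 to 305 (189) in NRK-52E and stood at 298 to 496 (355) and then 425, 262, 307, 376 and 256 in NRK-49F. The acid NRK-52E libraries thus spanned the NRK-49F level for Ccng1 and lay mostly below it for Phlda3. The libraries of NRK-49F overlapped between the pH values for Phlda3 and not for Ccng1, whose change of -0.21 ± 0.23 was not called. Gadd45a rose in both lines, by 2.78 ± 0.16 and 0.67 ± 0.16. Mdm2, the ubiquitin ligase of p53, changed by 1.60 ± 0.18 against 0.27 ± 0.18. The negative calls were Polk, a translesion polymerase (-0.85 ± 0.16 against 0.35 ± 0.16), and Sesn1 (-0.40 ± 0.09 against -0.02 ± 0.09). The difference of Sesn1 was not called under 6 of 33 alternatives, among them TMM within each line, either pair of sample groups, without the 4 libraries and without the NRK-49F library A055. The median difference of the list was 0.81 in sample groups 1 and 4 and 1.72 in groups 3 and 6, so the size, not the sign, varied between them.

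**Figure D3:**
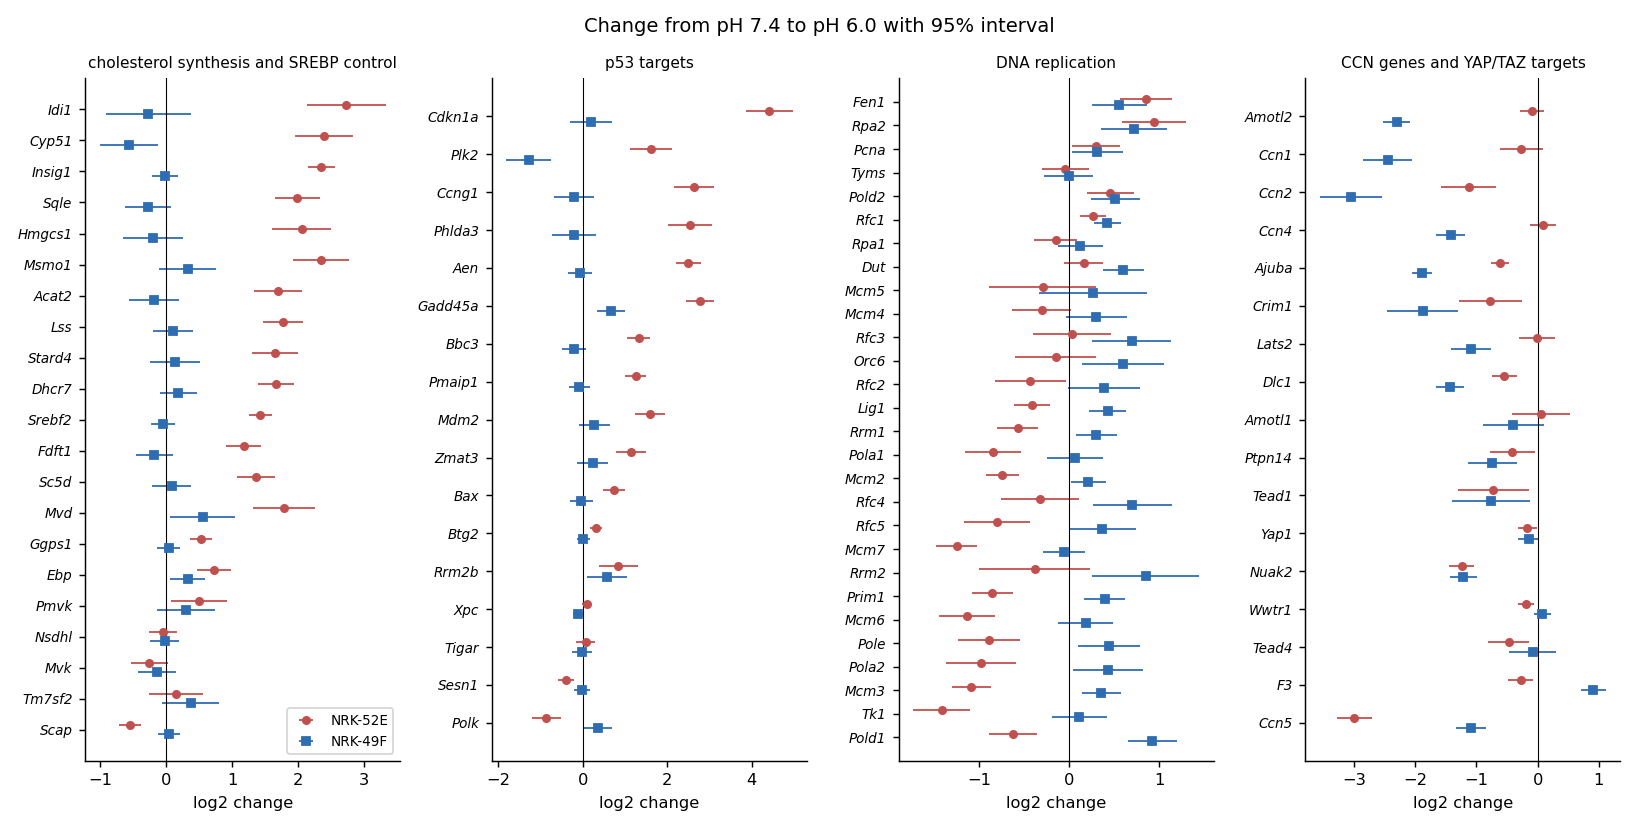
Log2 change from pH 7.4 to pH 6.0 with its 95% interval for expressed genes of 4 lists (21 of the 24 of cholesterol synthesis and all of the others), NRK-52E as red circles and NRK-49F as blue squares, ordered within a list by the difference. Red lies to the right of blue for most cholesterol and p53 genes (18 and 13 positive calls) and to the left for most DNA replication genes (18 negative calls), while 8 CCN and YAP/TAZ genes have a positive call.

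Protein folding and degradation in the endoplasmic reticulum (ER) also leaned to NRK-52E. Of 19 ER chaperones and folding enzymes 9 had a positive and 0 a negative called difference, a share (47.4%) near that of all expressed genes, with a median difference of 0.50. In NRK-52E, 15 of the 19 rose, against 28.9% of all expressed genes. Hspa5, the chaperone BiP, went in NRK-52E from 805 to 1010 FPM (median 894) to 1110 to 3656. In NRK-49F it stood at 567 to 709 (628) and then at 602, 491, 599, 604 and 516. The acid NRK-52E libraries of Hspa5 fell apart by sample group, at 1110 to 1187 in group 1 and 3292 to 3656 in group 3, with changes of 0.49 in sample group 1 and 1.82 in group 3. Xbp1, a transcription factor of the unfolded protein response, changed by 0.66 ± 0.08 against -0.15 ± 0.09. Of 13 genes of ER-associated degradation, 8 had a positive and 3 a negative call (84.6%, median 0.63). Sel1l, a subunit of the ligase complex, changed by 1.48 ± 0.13 against -0.07 ± 0.13, and its partner Syvn1 was opposite at 0.58 ± 0.09 and -0.37 ± 0.10. Edem1, which hands misfolded glycoproteins to the ligase, went the other way at -0.84 ± 0.10 against 0.09 ± 0.11.

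Cytosolic aminoacyl-tRNA synthetases, which load amino acids on tRNA, had 9 positive and 0 negative calls among 19 genes (47.4%, median difference 0.34). The largest was Eprs, at 1.33 ± 0.09 against 0.22 ± 0.09. Cytosolic heat shock proteins had 7 positive calls and 1 negative among 18 (44.4%, median 0.32), with Hspa4 at 0.92 ± 0.12 against -0.08 ± 0.12 as an example. The called shares of the synthetases and the heat shock proteins were near that of all expressed genes. Translation factors had 8 positive and 0 negative calls among 29, and proteasome subunits 7 and 0 among 32, both below the share of all expressed genes. Targets of ATF4, the factor of the integrated stress response, had 5 positive and 3 negative calls among 14. Trib3, a pseudokinase and the most strongly rising of them, increased by 2.58 ± 0.20 and 1.72 ± 0.21. Its difference of 0.86 was not called in sample groups 1 and 4 alone or without the 4 libraries. The median difference of the ATF4 targets was 0.08 in sample groups 1 and 4 and 0.67 in groups 3 and 6. Of 36 splicing factors 16 had a positive and 8 a negative call (66.7%). Snrnp200, a helicase of the spliceosome, changed by 1.11 ± 0.08 against 0.00 ± 0.08, and Srsf3 by -1.36 ± 0.10 against -0.28 ± 0.10.

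Promoters of these genes were read from RefSeq (build GRCr8) as the 250 bases before the annotated start, which could be matched for 7338 of the 9698 expressed genes. The ER stress element, searched on both strands as CCAAT and CCACG with 9 bases between them, was found in 8 of the 14 ER chaperone promoters at hand (57.1%), in 0.204% of expressed genes' promoters and in 0.0765% of all 27457. It contains the CCAAT box. The 2 sequences below are shown because Hspa5 and Xbp1 had the largest called differences, in absolute size, of the listed genes with a match. The capitals mark the match. That of Hspa5 lies at chr3:38452766-38453015 on the plus strand and the match begins 43 bases before the start. That of Xbp1 lies at chr14:84604373-84604622 on the plus strand and the match begins 65 bases before the start. The match is a description of the letters in the window.
Hspa5: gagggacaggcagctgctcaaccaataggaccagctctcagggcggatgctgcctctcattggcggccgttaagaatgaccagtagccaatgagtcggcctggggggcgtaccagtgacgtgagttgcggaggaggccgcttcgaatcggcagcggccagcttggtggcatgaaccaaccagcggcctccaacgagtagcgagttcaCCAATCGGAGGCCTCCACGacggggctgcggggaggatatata
Xbp1: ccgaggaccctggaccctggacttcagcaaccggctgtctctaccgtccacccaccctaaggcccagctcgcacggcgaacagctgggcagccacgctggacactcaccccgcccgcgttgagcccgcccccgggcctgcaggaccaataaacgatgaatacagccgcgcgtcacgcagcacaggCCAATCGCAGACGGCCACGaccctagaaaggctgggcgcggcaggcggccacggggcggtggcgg
The amino acid response element TGATGCAA, also searched on both strands, was found in 2 of 12 promoters of the ATF4 list (16.7%). It was in 0.545% of expressed genes' and 0.656% of all promoters. For cholesterol synthesis, the sterol element TCACNCCAC was found on neither strand in any of 17 promoters (0 of 17, against 0.927% and 0.976%). This says only that these letters were not in this window.

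DNA replication had the most negative median difference among lists of at least 3 expressed genes, -0.85, with 18 negative and 0 positive calls among 28 (64.3%). The median change was -0.40 in NRK-52E and 0.39 in NRK-49F, and 6 genes were opposite. Pold1, the catalytic subunit of polymerase delta, stood at 10.9 to 16.9 FPM (median 13.3) and 7.16 to 9.93 (8.86) in NRK-52E. In NRK-49F it rose from 17.4 to 22 (20.9) to 52.3, 32.8, 33.8, 37.7 and 34.2. The pH values of Pold1 did not overlap in either line, and the changes were -0.63 ± 0.13 and 0.92 ± 0.13. Mcm3, a subunit of the replicative helicase, changed by -1.08 ± 0.10 and 0.36 ± 0.10. Prim1, Pole, Lig1 and Rrm1 were the other opposite genes. Tk1, thymidine kinase, fell in NRK-52E alone at -1.41 ± 0.15 against 0.11 ± 0.15.

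Genes of the kinetochore and mitosis had a median difference of -0.64, with 13 negative calls and 1 positive among 30 (46.7%, near the share of all expressed genes). Their median change was 0.86 in NRK-49F and 0.09 in NRK-52E, where 9 rose and 10 fell, against 28.9% and 35.1% of all expressed genes. Ccnb2, a mitotic cyclin, was the most negative of the 7 opposite genes. In NRK-52E it went from 4.57 to 18.1 FPM (median 10.5) to 1.97 to 8.05 (4.98), and in NRK-49F from 10.6 to 21 (14.4) to 37.4, 29.6, 35.4, 33 and 29.6. The values of Ccnb2 overlapped in NRK-52E and not in NRK-49F. The kinetochore gene Cenpf changed by -1.53 ± 0.36 against 0.79 ± 0.35, the latter not called. Cdk1, the mitotic kinase, was the positive call: it rose in both lines, by 1.36 ± 0.16 and 0.67 ± 0.16, and its difference was not called in sample groups 1 and 4 alone.

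Letters of cell cycle promoters were searched in the same windows, on both strands. The cell cycle homology region TTTGAA was found in 12 of 24 promoters of the mitosis list (50%), in 9.53% of expressed genes' promoters and in 16% of all. The CCAAT box was found in 17 of the 24 (70.8%, against 36.5% and 34.3%). The E2F site TTTCCCGC was found in 2 of 26 promoters of the replication list (7.69%, against 2.1% and 0.856%). The promoter of Ccnb2 is shown because it is the most negative of the opposite mitosis genes. It lies at chr8:79981659-79981908 on the minus strand and holds 2 matches to TTTGAA, in capitals, that begin 214 and 43 bases before the start.
Ccnb2: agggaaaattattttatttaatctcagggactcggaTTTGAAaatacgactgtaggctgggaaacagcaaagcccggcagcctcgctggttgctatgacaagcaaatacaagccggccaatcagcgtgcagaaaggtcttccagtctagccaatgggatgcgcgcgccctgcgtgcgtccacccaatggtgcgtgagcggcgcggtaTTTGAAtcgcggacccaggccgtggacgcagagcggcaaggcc

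The CCN genes and other genes of the YAP/TAZ pathway, which responds to cell shape and tension, leaned to a deeper fall in NRK-49F. Of 17 expressed genes, 10 fell and 0 rose in NRK-52E, where 35.1% of all expressed genes fell. In NRK-49F, where 15.3% of all fell, 11 of the 17 fell and 1 rose. Of the differences, 8 were called positive and 3 negative (64.7%), with a median difference of 0.45 and median changes of -0.41 in NRK-52E and -1.09 in NRK-49F. Amotl2, an angiomotin that binds YAP, stood at 353 to 445 FPM (median 410) and 355 to 411 (376) in NRK-52E. In NRK-49F it fell from 176 to 275 (221) to 39.2, 53.7, 38.5, 45.0 and 47.5. Its values in NRK-52E overlapped fully, and the changes were -0.09 ± 0.09 and -2.30 ± 0.11.

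Ccn1, a secreted matricellular protein, went from 109 to 167 FPM (median 121) to 21.1, 23.7, 20, 29.3 and 21.1 in NRK-49F, and stood at 158 to 189 (178) and 94.4 to 213 (145) in NRK-52E. The NRK-52E change of Ccn1 was 0.11 in sample group 1 and -0.80 in group 3, where it was called. Its relative Ccn2, connective tissue growth factor, fell in both lines, in NRK-52E from 2239 to 3622 (2937) to 710 to 2027 (1340) and in NRK-49F from 3990 to 4966 (4201) to 523, 568, 455, 591 and 480. The changes of Ccn2 were -1.12 ± 0.22 and -3.04 ± 0.25. Ccn4 changed by 0.09 ± 0.11 against -1.42 ± 0.12 and the LIM protein gene Fhl2 by -0.02 ± 0.11 against -1.49 ± 0.12. The negative calls included Ccn5, which fell further in NRK-52E (-2.99 ± 0.14 against -1.09 ± 0.12), and F3, tissue factor, which was opposite at -0.28 ± 0.10 and 0.91 ± 0.10.

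The TEAD site GGAATG, searched on both strands, was found in 7 of 10 promoters of this list (70.0%), against 9.68% of expressed genes' and 11.8% of all promoters. The promoters of Amotl2 and Ccn1 are shown because these genes had the largest called differences, in absolute size, of the listed genes with a match. The first lies at chr8:112182376-112182625 on the plus strand with the match, in capitals, 76 bases before the start. The second lies at chr2:237225690-237225939 on the minus strand with the match 113 bases before the start. In both, the capitals read CATTCC, the reverse complement of GGAATG.
Amotl2: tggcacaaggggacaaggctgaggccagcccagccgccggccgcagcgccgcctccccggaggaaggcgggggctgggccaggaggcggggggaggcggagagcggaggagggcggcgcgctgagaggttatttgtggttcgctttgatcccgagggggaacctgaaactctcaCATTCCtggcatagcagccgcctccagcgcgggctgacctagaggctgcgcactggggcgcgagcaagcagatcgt
Ccn1: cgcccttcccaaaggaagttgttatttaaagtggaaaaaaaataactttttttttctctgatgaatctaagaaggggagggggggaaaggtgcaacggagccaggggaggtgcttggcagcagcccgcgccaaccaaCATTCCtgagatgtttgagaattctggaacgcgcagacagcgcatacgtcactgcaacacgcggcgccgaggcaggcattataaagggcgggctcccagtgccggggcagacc

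Genes of TGF-beta and BMP signalling, which share the Smad transcription factors, had no common direction of the difference. There were 9 positive and 7 negative calls among 35 (45.7%, near the share of all expressed genes). The median changes of the list were -0.54 in NRK-52E and -0.61 in NRK-49F. The inhibitors of differentiation Id2 and Id3, targets of BMP, were opposite over all libraries, but their NRK-52E change depended on the sample group. It was 1.32 in group 1 and 0.04, not called, in group 3 for Id2, and 1.68 and 0.47 for Id3. Id3 rose in NRK-52E from 60.4 to 82.2 FPM (median 74.6) to 81.5 to 277 (161). In NRK-49F it fell from 91.7 to 150 (128) to 78.5, 73.1, 67.2, 68.6 and 60.4, with changes of 1.25 ± 0.25 and -0.81 ± 0.26. The pH values of Id3 touched in NRK-52E and were separate in NRK-49F. Bmp4, the ligand, fell by 2.57 ± 0.14 in NRK-49F, to 20, 21.6, 20.4, 25.8 and 19.5 FPM from 116 to 141, and by 0.39 ± 0.12 in NRK-52E, where it changed by -0.07 in sample group 1 and -0.78 in group 3. Smad6, an inhibitory Smad, changed by -1.82 ± 0.16 in NRK-49F against -0.27 ± 0.15, with NRK-52E values of 0.13 in group 1 and -0.80 in group 3. Tgfb1 went the other way, at -1.43 ± 0.23 in NRK-52E against 0.16 ± 0.23 in NRK-49F.

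Of 21 expressed matrix glycoproteins, proteoglycans and laminins, 15 fell and 1 rose in NRK-52E, where 35.1% of all expressed genes fell. Of the 21, 10 had a negative and 0 a positive called difference (47.6%, median -0.45), a share near that of all expressed genes. The median change of the list was -1.03 in NRK-52E and 0.06 in NRK-49F. Sdc2, a membrane heparan sulfate proteoglycan, was opposite: 273 to 317 FPM (median 292) became 103 to 145 (120) in NRK-52E, and 265 to 295 (276) became 561, 419, 454, 481 and 425 in NRK-49F. The lines were alike at pH 7.4 and apart in every library at pH 6.0. The laminin genes Lamb1 and Lamb3 were opposite as well, at -1.46 ± 0.08 and 0.25 ± 0.08 and at -1.03 ± 0.13 and 0.73 ± 0.13. Agrn, agrin of the basement membrane, fell in NRK-52E alone, from 1446 to 2650 (2172) to 506 to 1058 (709).

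The differences of Spp1 and Fn1 moved with the 4 libraries named above. Spp1, osteopontin, had 25.8, 9.58, 1.55, 19.3, 1.96 and 0.792 FPM in NRK-52E at pH 7.4, in the order of the library codes, and 0.552 to 1.57 at pH 6.0. Spp1 thus passed the limit of 5 FPM only through A021, A022 and A033, and it is still counted in the list above. Its rise in NRK-49F, from 1661 to 2198 FPM to 7034, 5918, 7651, 7500 and 6603, had no overlap. The difference of Spp1 was -5.16 ± 0.77 with all libraries and -2.35 without the 4 (adjusted p = 1.63e-05 by the quasi-likelihood F test in edgeR). That of Fn1, fibronectin, was -2.55 ± 0.57 and -1.43 (adjusted p = 0.0255, quasi-likelihood F test in edgeR, Benjamini-Hochberg).

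Of 14 matrix proteases and inhibitors, 10 had a negative and 0 a positive call (71.4%), and the median difference, -0.85, was close to that of DNA replication. Of 15 collagens, 13 fell in NRK-52E and 7 in NRK-49F, where 35.1% and 15.3% of all expressed genes fell. The median changes of the collagens were -1.22 and -0.67. Their difference was positive for 1 and negative for 4 (33.3%, below the share of all expressed genes). Of 22 genes of collagen processing and crosslinking, 8 differences were positive and 8 negative (72.7%).

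Immediate early genes had 9 negative and 3 positive calls among 20 (60%, median -0.50). The median was 0.03 among the genes of the list at 20 FPM or more, so its direction depended on the limit on level. Jun, a subunit of AP-1, stood at 105.2 to 123 FPM (median 114) and 51.8 to 62.8 (57.2) in NRK-52E. In NRK-49F it rose from 139 to 170 (157) to 196, 232, 250, 246 and 246. The pH values did not overlap in either line, and the changes were -1.0 ± 0.08 and 0.59 ± 0.08. Ier3 and Klf10 were opposite in the same sense, Ier3 at -0.36 ± 0.10 and 0.90 ± 0.10.

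Lists of energy metabolism differed among themselves. Of 20 genes of fatty acid oxidation, 11 had a negative and 1 a positive call (60%, median difference -0.52). Hadha, the alpha subunit of the trifunctional protein, stood at 179 to 236 FPM (median 194) and 189 to 217 (193) in NRK-52E. In NRK-49F it rose from 434 to 541 (452) to 1087, 840, 1001, 1071 and 922, a change of 1.06 ± 0.09. Hadh, the dehydrogenase for shorter chains, instead fell in NRK-52E, at -1.03 ± 0.08 against 0.17 ± 0.08. Glycolysis and lactate genes had 9 negative and 2 positive calls among 17 (64.7%, median -0.23). The phosphofructokinase gene Pfkm changed by -1.17 ± 0.15 against 0.19 ± 0.15. The lactate carrier gene Slc16a1 was 1 of 2 opposite genes, at -0.55 ± 0.08 and 0.45 ± 0.08. The positive calls were the hexokinase gene Hk2 (1.74 ± 0.18 against 0.60 ± 0.18) and Aldoc (2.60 ± 0.20 against 0.59 ± 0.20). The TCA cycle and pyruvate entry list had 7 positive and 6 negative calls among 25 (52%), and the pentose phosphate list 2 and 3 among 9 (55.6%).

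Of 24 redox genes under NRF2, 15 rose in NRK-52E and 18 in NRK-49F, where 28.9% and 15.2% of all expressed genes rose. The median changes of the list were 0.58 and 0.82, and 7 of its differences were positive and 8 negative. Osgin1, an oxidative stress growth inhibitor, rose by 2.81 ± 0.12 and 1.00 ± 0.12, and Gclm, which limits glutathione synthesis, by 2.14 ± 0.14 and 0.80 ± 0.15. Prdx1, a peroxiredoxin, changed by -0.25 ± 0.17 against 1.30 ± 0.18, with 1343, 624, 688, 724 and 534 FPM in the acid NRK-49F libraries against 271 to 417 at pH 7.4. Nqo1, a quinone reductase, rose by 1.55 ± 0.15 and 2.35 ± 0.16, a difference not called in sample groups 1 and 4 alone. Txnip, the thioredoxin-binding arrestin, rose in both lines, to 1357, 1490, 1463, 1348 and 1399 FPM in NRK-49F from 263 to 333, and only from 206 to 270 to 265 to 370 in NRK-52E, where the change was called in sample group 1 (0.48) and not in group 3 (0.19). Its difference was -1.96 ± 0.13.

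Among 11 expressed acid-base transporters and carbonic anhydrases, 1 difference was positive and 4 were negative (45.5%, near the share of all expressed genes). Ca9, an extracellular carbonic anhydrase, stood in NRK-52E at 1213 to 1486 FPM (median 1281) and 254 to 746 (530). In NRK-49F it rose from 126 to 156 (142) to 238, 234, 247, 246 and 233, so both lines moved without overlap and the gap between them narrowed at pH 6.0. The changes of Ca9 were -1.37 ± 0.21 and 0.76 ± 0.22. Slc4a2, an anion exchanger that moves bicarbonate out of the cell, fell in both lines, by 1.33 ± 0.07 and by 1.10 ± 0.08, with a difference of -0.23 (95% interval -0.45 to -0.02) that was not called.

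Of 12 genes of the sodium pump, the epithelial sodium channel and the corticosteroid response, 7 had a negative and 2 a positive call (75%, median -0.51). Atp1b1, the beta subunit of the sodium pump, fell in NRK-52E from 344 to 407 FPM (median 364) to 66.1 to 176 (110), and in NRK-49F was at 26.6 to 35.8 (28.0) and then 23.2, 28.1, 34.7, 35.3 and 35.9. The other line thus held little of it at either pH. The beta subunit gene Atp1b3 was opposite over all libraries at -0.34 ± 0.14 and 0.46 ± 0.15, but its NRK-52E change was 0.09 in sample group 1 and -0.86 in group 3. Klf9 and Per1, which glucocorticoids induce, were the positive calls, at 1.49 ± 0.24 against 0.00 ± 0.25 and 0.78 ± 0.09 against 0.19 ± 0.10. Tsc22d3, another corticosteroid-responsive gene of the list, had a negative call, so these genes had no common direction. The Klf9 difference was not called in sample groups 1 and 4 alone, nor that of Per1 in groups 3 and 6 alone.

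Of 31 lysosomal cathepsins and hydrolases, 14 had a negative and 3 a positive call (54.8%, median -0.39). Of 17 lysosomal membrane and TFEB family genes, 6 had a positive and 0 a negative call, a share (35.3%) below the 45.8% of all expressed genes. Arsb, an arylsulfatase, was opposite: 90.8 to 110 FPM (median 104) became 48.5 to 57.7 (53.1) in NRK-52E and 92.6 to 106 (96.3) became 132, 157, 154, 164 and 160 in NRK-49F. Levels were alike at pH 7.4 and separate at pH 6.0. The median change of the hydrolases in NRK-52E was 0.04 in sample group 1 and -0.42 in group 3.

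Few differences were called in large housekeeping complexes. Among 67 cytosolic ribosomal proteins 2 differences were called, both negative (2.99%), and among 61 respiratory chain subunits 3 (4.92%), against 45.8% of all expressed genes. Their median differences were -0.14 and -0.06, smaller than the spread between libraries of the same group (0.31 and 0.28 log2 units), and their signs were not stable. The respiratory chain median was 0.04 with TMM within each line, -0.11 without the 4 libraries, 0.06 without the NRK-49F library A042 and 0.05 without the NRK-52E library A035. The ribosomal protein median was 0.01 without A042. Missing the threshold does not show that the responses were equal.

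**Figure D4:**
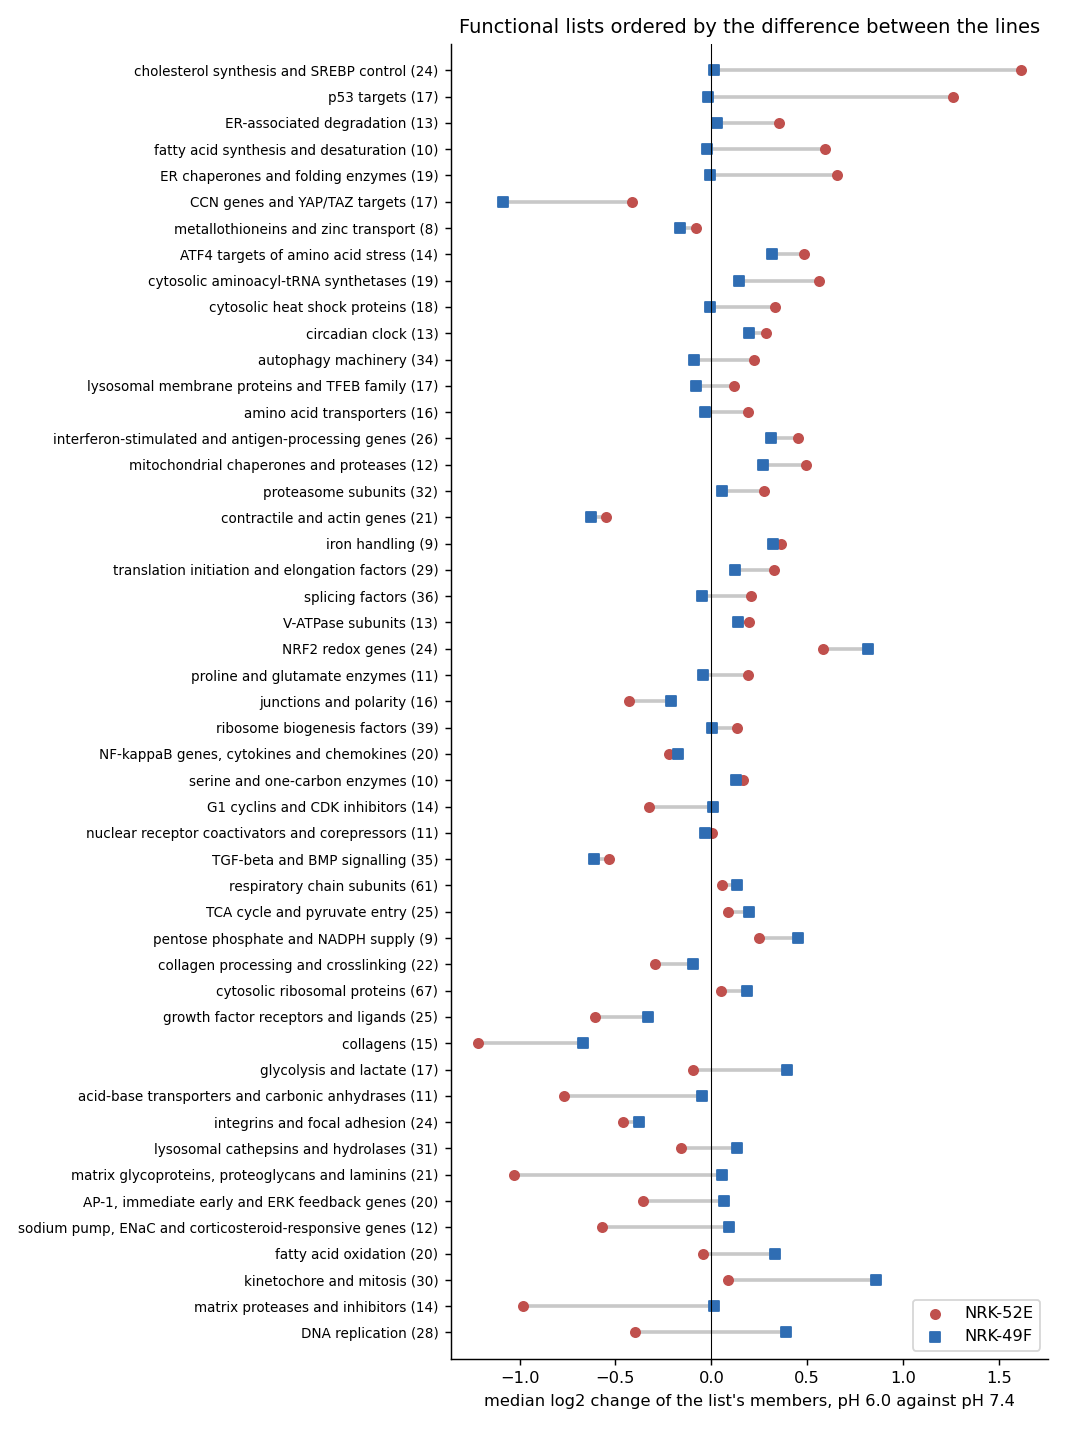
Median log2 change from pH 7.4 to pH 6.0 over the expressed genes of each list with at least 8 of them (number in brackets), NRK-52E as red circles and NRK-49F as blue squares, ordered by the median difference. The widest gaps are at cholesterol synthesis (1.62 against 0.01) and p53 targets (1.26 against -0.02) at the top, and at the bottom DNA replication has medians on either side of 0 (-0.40 and 0.39).

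Across the 53 lists, the median difference had the same sign in sample groups 1 and 4 as in groups 3 and 6 for 42. The absolute change in NRK-52E was larger in group 3 than in group 1 for 32. Cholesterol synthesis was similar in both (1.57 and 1.49), DNA replication larger in groups 1 and 4 (-1.12 against -0.67), and ER chaperones larger in groups 3 and 6 (0.20 against 0.79).

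**Figure D5:**
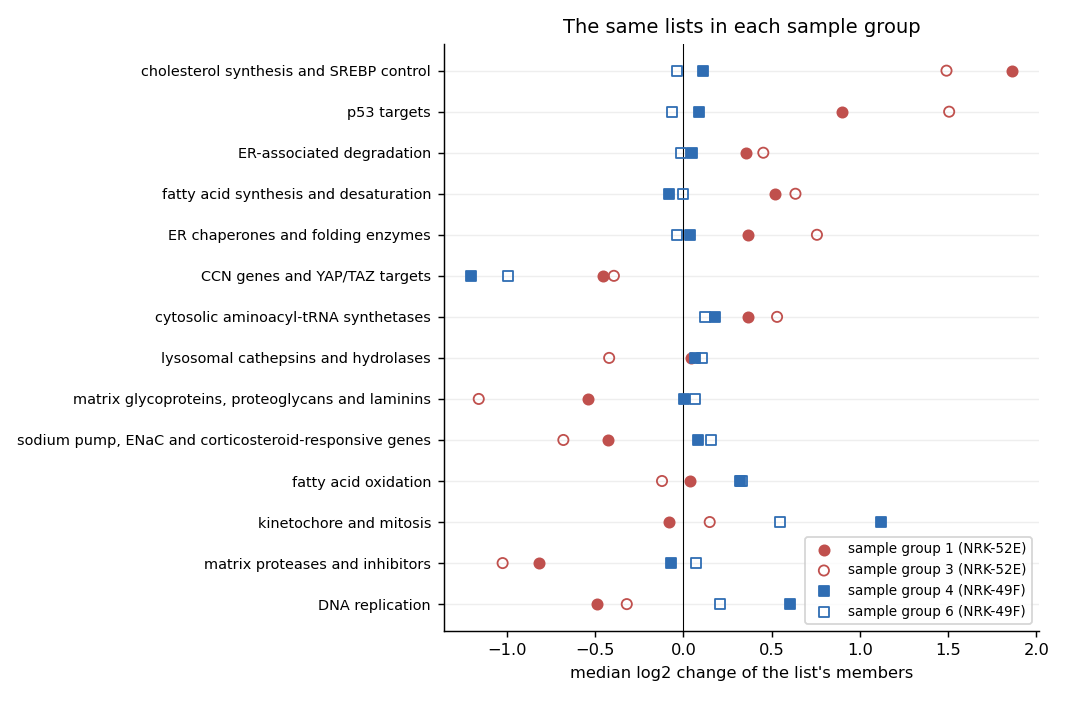
Median log2 change of 14 lists in each sample group, with NRK-52E groups as red circles (1 filled, 3 open) and NRK-49F groups as blue squares (4 filled, 6 open). Red and blue stay on the same side of each other in all 14 lists, which were picked from the 53 and do not stand for the rest. Of the lists not shown, ATF4 targets changed sides (0.34 in group 1 against 0.43 in group 4, and 0.72 in group 3 against 0.20 in group 6). The distance between filled and open red symbols is widest for matrix glycoproteins (-0.54 and -1.16) and p53 targets (0.90 and 1.51).

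The limit of 5 FPM has no natural place. Just inside it, by the NRK-52E level at pH 7.4, were Ak4 at 5.0015 FPM, with a difference of -0.63, and Mid1 at 5.0037, with 1.29. Just outside were Cep135 at 4.9988, with -1.54, and Xpnpep3 at 4.9967, with -0.02.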

How the data were processed

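Poly(A) RNA of NRK-52E and NRK-49F cells at pH 7.4 and pH 6.0 was sequenced in paired ends. The authors deposited 1 table of raw read counts per gene, made with HISAT2 2.1.0 and featureCounts, per the labels and the study's methods. Reads that map to several places were counted, so close paralogs may share reads. The submitters' processing notes name build rn6 and the study's methods rn7, and the strand setting is not given in the sources used here. Of 36 sample columns, 13 matched no label and were not used.

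Counts of the 23 libraries were filtered with filterByExpr (minimum count 10, minimum total 15), scaled by TMM and fitted in a model of 4 groups with edgeR 4.0.16 and limma 3.58.1 in R 4.3.3. The 2 changes and their difference were tested, 2-sided, with the quasi-likelihood F test, and p-values were adjusted by the Benjamini-Hochberg method over all tested genes at 0.05. Groups share no replicate numbers, so no pairing was used. DESeq2 1.42.0, other scalings, other limits on level, the sample group as a block, each pair of sample groups and leaving out each library were the alternatives. The fitting code was tested on simulated data.

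Functional lists (53, with 1359 of 1400 symbols matched, 20 of them by synonym) and the genes described were chosen with earlier results of these data known. Named genes were the 6 opposite genes with the largest difference each way and no overlap in either line, the 5 largest rises and 5 largest falls of each line whose 95% interval in the other line lay within 0.5, and up to 3 genes each way per list with the largest called difference. Tnfsf18, Hmgcs1, Phlda3, Gadd45a, Mdm2, Xbp1, Prim1, Pole, Lig1, Rrm1, Smad6, Sdc2, Lamb1, Lamb3, Agrn, Klf10, Slc16a1, Nqo1, Slc4a2, Atp1b3 and Col1a2 were named after their values were seen. Some genes that the rules took are not reported here. Promoters were taken from RefSeq. Figures were drawn with matplotlib 3.10.9 and pandas 2.3.3 in Python 3.11.15. Library totals of 16412564 to 34250535 counts limit the precision of genes near 5 FPM.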

Additional observations from a re-analysis of the deposited data

Results flagged for a closer look

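Differences between the lines stood out by the test of the difference itself for 4440 expressed genes, 417 of them opposite. Of the opposite genes without overlap, the difference was 3.41 for Ephx1, 2.89 for Plk2, 2.04 for Kdsr, 2.02 for Dusp8 and 1.84 for Nt5dc2. In the reverse direction it was -5.40 for Gja5, -4.61 for Krt15, -3.41 for Mmd, -3.40 for Asrgl1, -3.01 for Mmp19 and -3.00 for Fzd8.

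Sample groups 1 and 3 of NRK-52E differed in the size of the change. The log2 change in group 1 minus that in group 3 was -1.44 for Ephx1, -2.09 for Plk2, -0.55 for Gpr180 and -1.26 for Slc29a1. It was 1.73 for Krt15, 0.61 for Mmd, 1.09 for Mmp19 and 0.94 for Loxl1. The labels do not say what the sample groups are, so their part was not tested.

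Of 128 groups of values of the named genes, 5 held a library far from the others, and chance alone gives about 1 in 20. The NRK-49F library A042 at pH 6.0 had 49.7 FPM of Aen and 149.6 FPM of Fam114a1, both the highest of their group. The NRK-52E library A035 at pH 7.4 had the lowest Dsp (3.85 FPM) and the lowest Steap2 (12.4 FPM), and A024 at pH 6.0 had the highest Sh3tc1 (138.8 FPM).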

How the results depend on the processing

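The counts of genes with a called difference, opposite, in NRK-52E alone and in NRK-49F alone were 4440, 417, 2741 and 447. They moved within 1.5 times with other scalings, without the filter, with thinned libraries, with the sample group as a block (4817, 528, 2761 and 503) and with DESeq2 (4674, 481, 2766 and 507). Leaving out each library gave 4111 to 4551, 331 to 426, 2526 to 2933 and 374 to 472. With the 5 FPM limit applied anew in the libraries used, sample groups 1 and 4 alone gave 2322 differences, 192 opposite genes and 1442 in NRK-52E alone, with fewer libraries, and groups 3 and 6 gave 254 in NRK-49F alone. Opposite genes numbered 266 at 20 FPM or more, 192 at an adjusted p under 0.01 and 265 without the 4 libraries with signal of the other line, an alternative chosen after seeing the data. Tested against a log2 difference of 1, the counts were 409, 3, 294 and 29. The share of positive differences was 44.9%, and 50.2% with RLE scaling (2219 and 2198), 55.5% with TMM within each line, 50.1% with DESeq2 (2340 and 2334) and 52% at 20 FPM or more (1570 and 1452). Of 32 genes named by the first rules, 31 passed the threshold under all 33 alternatives, and Synm did not in sample groups 1 and 4 alone. Of 244 other genes, taken from the lists or named after their values were seen, 162 lost no call under any alternative, and none changed sign. The 162 include Slc4a2, whose difference was not called in the main fit. With scaling, the median difference changed sign for pentose phosphate, TCA cycle, respiratory chain, proton-sensing, TGF-beta and BMP and nuclear receptor coactivator genes and for G1 cyclins. No paired analysis was possible because the groups share no replicate numbers.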

Other observations

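The difference was more negative for genes that stood higher in NRK-49F at pH 7.4. The gap in level was taken from sample groups 1 and 4 and the response from groups 3 and 6. The 216 expressed genes at least 4-fold higher in NRK-49F had a median difference of -0.69. Their median change was -0.64 in NRK-52E and 0.005 in NRK-49F. The 7852 genes within 2-fold had a median difference of -0.02 and a median NRK-52E change of -0.02. The 191 genes at least 4-fold higher in NRK-52E had a median difference of -0.16. They fell about as much in NRK-52E, by a median of -0.62, and changed by -0.41 in NRK-49F. With the sample groups exchanged, the median differences were -0.41 (234 genes), -0.03 (7947) and -0.00 (189). The median NRK-52E changes were then -0.48, -0.01 and -0.41. These are descriptions over genes, which are not independent replicates.

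Of 21 contractile and actin genes, 17 fell and 0 rose in NRK-49F, where 15.3% of all expressed genes fell, and 12 fell and 2 rose in NRK-52E, where 35.1% of all fell. Their difference was positive for 6 and negative for 2, a share (38.1%) below the 45.8% of all expressed genes. Of 26 interferon-stimulated and antigen-processing genes, 15 rose and 4 fell in NRK-52E, where 28.9% of all expressed genes rose, and 10 rose and 0 fell in NRK-49F, where 15.2% rose. Of their differences, 4 were positive and 3 negative (26.9%). Of 34 autophagy genes, 12 differences were positive and 3 negative (44.1%, near the share of all, median 0.22).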
